A study of Mus musculus with 6 samples.

Results

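The genes described here are 39 genes of the skeletal muscle fibre, chosen by symbol from the 18482 genes of the count table of the series. They encode the sarcomere, its calcium supply and the enzymes that buffer its energy. All 39 were in the table and all 39 had enough reads to be tested, as 14856 genes in all did. RNA came from the ear skin of mice at postnatal day 21. Both groups had received tamoxifen. The 3 lecko libraries came from mice in which Kdr, the gene of the receptor VEGFR2, had been deleted in the lymphatic endothelium (genotype Vegfr2lecko), and the 3 control libraries came from their littermates. The design text lists more than 1 tamoxifen schedule without saying which these mice had, and names neither the Cre driver nor the strain.

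A muscle fibre shortens when thick filaments of myosin pull on thin filaments of actin within the sarcomere. Calcium released from the sarcoplasmic reticulum binds troponin on the thin filament and permits that pull. Many sarcomere proteins exist as fast and slow isoforms from separate genes: fast fibres contract quickly and rely largely on glycolysis, and slow fibres resist fatigue and are rich in mitochondria. The mouse ear holds thin sheets of skeletal muscle near the skin and the cartilage, so ear skin taken whole can carry muscle RNA. In such bulk tissue, fewer muscle fibres and less RNA per fibre cannot be told apart.

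The muscle promoters shown next are the 250 bases before the annotated start of 4 of these genes. Acta1 was the most abundant per length, Myh4 encodes the fastest myosin, and Tnnc2 and Tnnc1 are the fast and slow troponin C genes. Troponin C was the sole isoform pair whose ratio did not overlap between the groups, and nothing is read from a single pair. Sequences are from RefSeq on GRCm38.p6 and read 5′ to 3′ on the gene's strand. They lie at chr8:123894776-123895025 (minus strand), chr11:67237562-67237811 (plus), chr2:164779735-164779984 (minus) and chr14:31208062-31208311 (plus). Capitals mark matches on either strand to the E-box CANNTG, the core bound by myogenic factors such as MyoD, to the CArG box of SRF, to the MEF2 box and to CATTCC, the core of the TEAD site.
Acta1: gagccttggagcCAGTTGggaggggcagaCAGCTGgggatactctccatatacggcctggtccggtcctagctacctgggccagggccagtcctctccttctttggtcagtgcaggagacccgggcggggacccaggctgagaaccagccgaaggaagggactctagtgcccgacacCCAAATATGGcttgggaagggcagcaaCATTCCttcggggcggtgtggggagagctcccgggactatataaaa
Myh4: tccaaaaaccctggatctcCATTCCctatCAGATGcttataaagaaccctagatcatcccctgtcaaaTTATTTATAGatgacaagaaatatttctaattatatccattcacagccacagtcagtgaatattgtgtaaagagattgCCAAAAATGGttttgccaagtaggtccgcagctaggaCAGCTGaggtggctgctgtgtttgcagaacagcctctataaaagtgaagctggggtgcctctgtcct
Tnnc2: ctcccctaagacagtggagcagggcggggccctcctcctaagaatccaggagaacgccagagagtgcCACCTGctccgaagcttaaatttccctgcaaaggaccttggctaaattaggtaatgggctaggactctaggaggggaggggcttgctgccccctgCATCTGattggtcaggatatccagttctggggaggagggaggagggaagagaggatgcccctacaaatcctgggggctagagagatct
Tnnc1: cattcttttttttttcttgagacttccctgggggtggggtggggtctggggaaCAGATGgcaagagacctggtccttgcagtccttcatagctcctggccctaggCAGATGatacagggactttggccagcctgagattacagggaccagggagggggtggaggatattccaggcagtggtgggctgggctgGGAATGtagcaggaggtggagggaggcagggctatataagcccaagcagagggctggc
In Acta1 a CArG box began 73 bases before the start and a CATTCC 46 bases before it. Myh4 held a match to all 4 motifs, with an E-box CAGCTG 67 bases, a CArG box 104 bases and a MEF2 box 182 bases before the start. Tnnc2 held E-boxes only, and Tnnc1 held E-boxes and a CATTCC on the other strand, so neither troponin C window had a CArG or MEF2 match. RefSeq windows matched 30 of the 39 genes, with 36 windows in all. The form CAGCTG, which is counted among CANNTG as well, was in 16 of these 36 windows (44.4%) and in 13.0% of all 32851 windows of the same length. CANNTG was in 80.6% against 66.2%, the CArG box in 11.1% against 1.47%, the MEF2 box in 19.4% against 2.92% and CATTCC in 25.0% against 12.6%. Some genes have more than 1 window. Counted by gene, CAGCTG was in 14 of the 30, CANNTG in 25, the MEF2 box in 7 and CATTCC in 9. The CArG box was in 3 genes, among them Acta1 and Myh4, which are shown above. By fibre type, CAGCTG was found in 5 of the 10 fast genes with a window, in 3 of the 7 slow genes and in 6 of the 13 genes of both fibre types. A match of letters is a description of the window and not evidence of binding.

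Library totals were 17242921 to 17825135 estimated counts, so depth was close to equal. Levels are given in CPM, counts scaled to a common library size. Kdr, the deleted gene, ranged from 31.3 to 38.5 CPM among controls and from 9.76 to 11.2 CPM among lecko libraries. Kdr is also among the blood endothelial markers given below, and bulk libraries do not show which cells lost its RNA. Whether the loss was confined to the lymphatic endothelium was not tested. Counts of 4 Y-linked genes were 4272 and 4564 in controls 2 and 3 and between 4 and 21 in the other libraries, so the groups differ in sex as well as in genotype, and control 1 is the sole control below the Y-linked threshold of 10 CPM with the lecko libraries. Skeletal muscle was present in every library by its defining markers, 8 genes that are all among the 39, with a summed level of 4640 to 6882 CPM. Of the 6 heart muscle markers, 4 were near 0: Myh6, Nppa, Nppb and Mybpc3 had at most 7.08, 1.0, 9.0 and 6.0 counts in any library. The other 2 were detected, Tnnt2 at 9.33 to 15.7 CPM and Tnni3 at 1.21 to 3.25 CPM.

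The summed level of the muscle genes was lower in every lecko library than in any control, with small differences per gene, and no single gene passed the test. The 39 genes together took 1.192%, 1.105% and 1.286% of all counts in controls 1 to 3 and 1.08%, 1.02% and 0.85% in lecko 1 to 3. Their summed level was 11227 to 12662 CPM in the controls and 8470 to 10860 CPM in the lecko libraries, and these ranges did not overlap. The sum is carried by the most abundant genes. With each gene weighted equally, the mean log2 CPM of the 39 was 7.20, 7.07 and 7.22 in the controls and 7.09, 6.90 and 6.71 in the lecko libraries, so that lecko 1 lay just above control 2 and the groups overlapped. By the sum, lecko 3 was the lowest of the 6 libraries and control 3 the highest. Gene by gene, lecko 3 held the lowest value of 30 of the 39 genes and control 3 the highest value of 25. Lecko 1 held the highest value of 5 genes, 4 of them slow isoforms (Tnni1, Tnnc1, Myh7 and Casq2), the other being Tcap.

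Per gene, 35 of the 39 log2 fold changes were below 0, with a median of -0.30 and quartiles of -0.33 and -0.24. Over all genes tested the median was 0.01 with quartiles of -0.08 and 0.10, and 48.1% were below 0. The quasi-likelihood test of edgeR, adjusted by Benjamini-Hochberg over all genes, called 0 of the 39 at the threshold of 0.05 in either direction, where it called 0.0202% of all genes (0.00673% lower and 0.0135% higher). The adjusted p of the 39 lay between 0.385 and 0.98. At an unadjusted p under 0.05, 23 were lower, where 3.68% of all genes were, and 0 were higher, where 4.89% were. DESeq2, which called 0.0539% of all genes lower, and limma-voom also called 0 of the 39, with 31 and 26 lower at an unadjusted p under 0.05. The groups did not overlap for 19 of the 39, all lower, where 7.23% of all genes were lower without overlap and 7.37% higher. These genes share fibres and libraries, so their counts are not independent of each other.

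The size of the shift moved with single libraries. The median over the 39 genes was -0.20 without lecko 3 and -0.39 without lecko 1. The number lower at an unadjusted p under 0.05 was 12 without control 1, 13 without control 3 and 8 with sex as a covariate. Among the 4 libraries below the Y-linked threshold, a comparison chosen after seeing the data that leaves a single control, the median was -0.32 and 10 genes were lower at an unadjusted p under 0.05. With sex as a covariate the median was -0.31. Only controls 2 and 3 are above the threshold, so in that fit too the group difference rests on control 1. It is not a separate check.

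**Figure D1:**
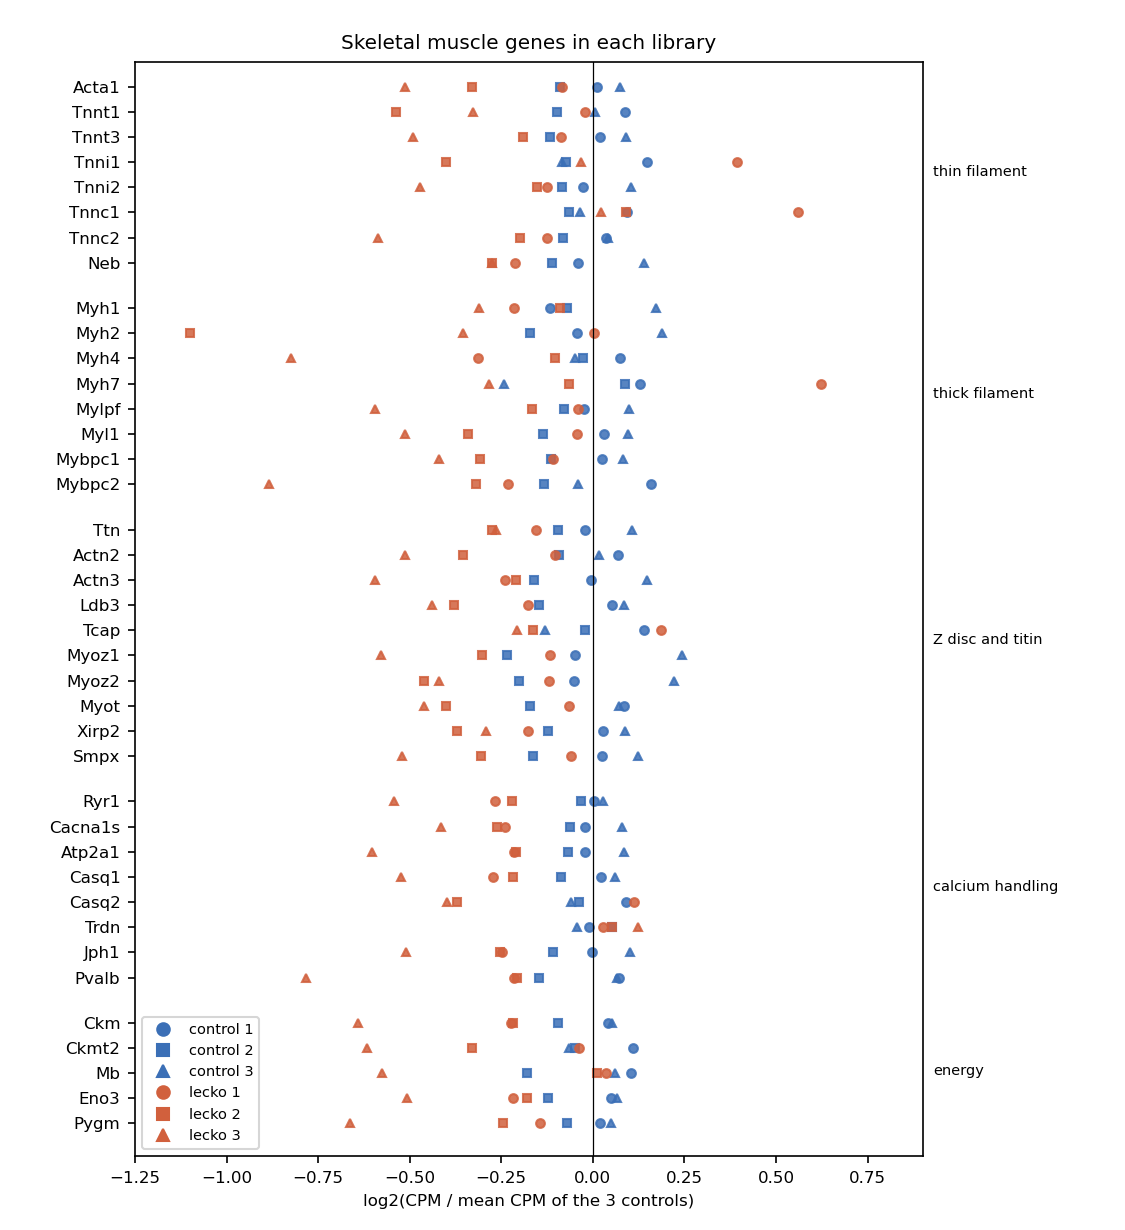
Level of each of the 39 genes in each library, as log2 of the CPM divided by the mean CPM of the 3 controls, with genes grouped by role. Blue points are controls and orange points lecko libraries, the shape gives the replicate, and most orange points lie left of 0, with lecko 3 lowest for 30 of the 39 genes and lecko 1 highest for Tnnc1, Myh7 and Tnni1.

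The thin filament carries actin, the troponin complex that senses calcium and nebulin, which sets filament length. Acta1, skeletal alpha-actin, lies on chromosome 8 from 123891758 to 123894775 and was at 2021, 1881 and 2108 CPM in controls 1 to 3 and at 1888, 1593 and 1404 CPM in lecko 1 to 3. The groups overlapped by a narrow margin, because lecko 1 lay just above control 2. Acta1 means were 2003 ± 115 and 1628 ± 244 CPM (SD, n = 3 each). Its log2 fold change was -0.30 (SE 0.11, 95% interval -0.54 to -0.06). Neb, which encodes nebulin, was at 233, 222 and 264 CPM in the controls and 207, 198 and 198 CPM in the lecko libraries. All lecko values of Neb lay below all control values, with a log2 fold change of -0.25 (SE 0.07).

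The fast troponin subunits were lower in lecko 3 than in any other library. Tnnt3, fast troponin T, which ties the complex to tropomyosin, was at 591, 538 and 621 CPM in the controls and 549, 511 and 415 CPM in the lecko libraries. Tnni2, the fast inhibitory subunit, was at 181, 174 and 198 CPM and at 169, 166 and 133 CPM. Tnnc2, the fast calcium-binding subunit, was at 319, 294 and 320 CPM and at 285, 271 and 207 CPM. Control and lecko values of Tnni2 and Tnnc2 did not overlap, and those of Tnnt3 did. Log2 fold changes were -0.25 for Tnnt3, -0.24 for Tnni2 and -0.29 for Tnnc2. Tnnt3 and Tnni2 are neighbours on chromosome 7, at 142498771 to 142516213 and 142441816 to 142444410.

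The slow troponin subunits did not share this order of libraries. Tnnt1, slow troponin T, was at 61.2, 53.8 and 57.8 CPM in the controls and at 56.8, 39.7 and 45.9 CPM in the lecko libraries, lowest in lecko 2. Tnni1, slow troponin I, was at 15.5, 13.3 and 13.2 CPM and at 18.4, 10.6 and 13.7 CPM, so its highest and its lowest value were both in lecko skin. Tnnc1, the troponin C of slow and heart muscle, was at 6.86, 6.15 and 6.28 CPM and at 9.48, 6.84 and 6.53 CPM. Lecko 1 stood above the other 5 libraries for Tnni1 and Tnnc1. The log2 fold changes were -0.28 for Tnnt1, 0.02 for Tnni1 (95% interval -0.41 to 0.46) and 0.24 for Tnnc1 (95% interval -0.13 to 0.61). The sign of Tnni1 was not stable: it was at -0.21 without lecko 1.

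The thick filament is built of myosin, whose heavy chain carries the motor and sets much of a fibre's speed, and of light chains and myosin binding protein C. Myh4, the IIB myosin of the fastest fibres, was at 609, 568 and 560 CPM in the controls and 466, 539 and 327 CPM in the lecko libraries, without overlap. Myh1, the IIX myosin, was at 1164, 1202 and 1424 CPM and at 1089, 1188 and 1019 CPM, with overlap. Myh2, the IIA myosin of fast oxidative fibres, was at 154, 141 and 181 CPM and at 159, 74.0 and 124 CPM. Among the heavy chains, lecko 2 was far below the other libraries for Myh2 alone, while it was the highest lecko library for Myh4 and Myh1. Myh7, the slow and cardiac myosin, was at 18.5, 18.0 and 14.3 CPM and at 26.1, 16.2 and 13.9 CPM, with lecko 1 above the rest. Log2 fold changes were -0.38 for Myh4, -0.20 for Myh1, -0.42 for Myh2 (95% interval -1.17 to 0.33) and 0.15 for Myh7 (95% interval -0.44 to 0.73). Without lecko 1 the value for Myh7 was -0.18.

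Myh2, Myh1 and Myh4 lie side by side on chromosome 11, at 67171027 to 67197517, 67200102 to 67224577 and 67237812 to 67260447. Their sequences are similar, and their deposited counts were not whole numbers in any library, so their values depend on how shared reads were divided. The same holds for Mylpf and Eno3 in all 6 libraries and for Myh7 and Mybpc2 in 4. The other 32 genes had whole counts throughout.

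The share of each adult myosin in the pool overlapped between the groups. Of the reads of Myh4, Myh1, Myh2 and Myh7 together, Myh1 took 62.5 ± 2.75% in controls and 65.5 ± 3.03% in lecko skin (SD, n = 3 each), and Myh4 took 28.8 ± 2.86% and 26.2 ± 3.84%. Myh2 took 7.91%, 7.31% and 8.33% in controls 1 to 3 and 9.11%, 4.07% and 8.34% in lecko 1 to 3. The 95% Wilson interval for Myh2 in lecko 2 was 3.86 to 4.29%, below the intervals of the other 5 libraries, the lowest of which began at 7.04%. Myh7 took 0.951%, 0.933% and 0.655% in the controls and 1.5%, 0.893% and 0.937% in the lecko libraries, with an interval of 1.37 to 1.64% in lecko 1. These intervals cover counting error only.

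**Figure D2:**
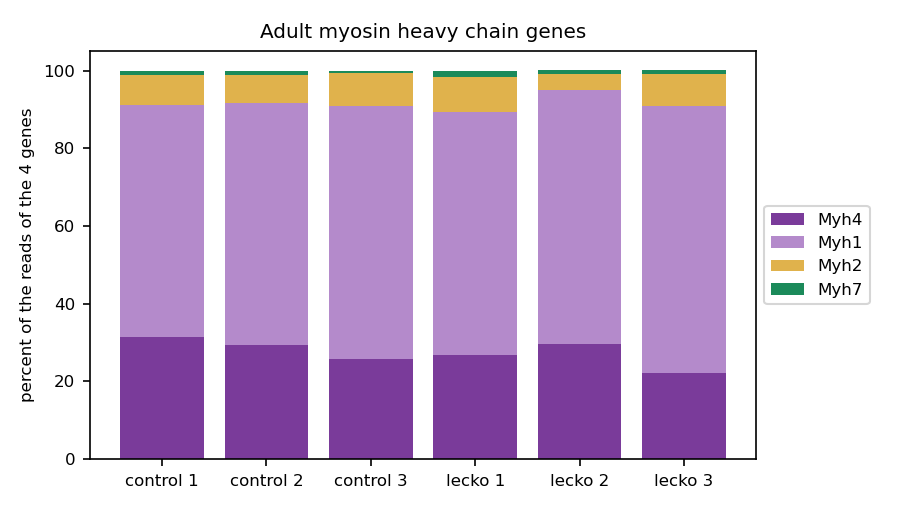
Percent of the estimated reads of the adult myosin heavy chain genes Myh4, Myh1, Myh2 and Myh7 in each library, as stacked bars. Myh1 is the largest share in every library, Myh2 is reduced in lecko 2 alone (4.07%) and Myh7 is largest in lecko 1 (1.5%).

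Among the other thick filament genes, Mylpf and Myl1 encode the regulatory and essential light chains of fast myosin. Mylpf was at 668 ± 42.2 and 562 ± 107 CPM (SD, n = 3 each) and Myl1 at 640 ± 51.9 and 525 ± 87.6 CPM, with log2 fold changes of -0.25 and -0.29 and overlap for both. Mybpc2, fast myosin binding protein C, was at 52.5, 42.9 and 45.8 CPM in the controls and 40.1, 37.7 and 25.5 CPM in the lecko libraries. It had the lowest log2 fold change of the 39 genes, -0.45 (SE 0.17, adjusted p = 0.551 by edgeR), without overlap. Mybpc1, named for slow muscle although fast fibres make it too, was at 370, 336 and 385 CPM and at 337, 294 and 272 CPM. The groups overlapped narrowly for Mybpc1, with lecko 1 just above control 2, and its log2 fold change was -0.27. Per length, Mybpc1 was well above Mybpc2, at 92.7 against 13.0 reads per kilobase, scaled as CPM (RPKM), in the controls.

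The Z disc anchors the thin filaments and titin, the giant spring that runs from the Z disc to the middle of the sarcomere. Ttn, the titin gene, was at 581, 552 and 635 CPM in the controls and 529, 487 and 491 CPM in the lecko libraries. Ldb3, whose protein ZASP binds alpha-actinin, was at 170, 148 and 174 CPM and at 145, 126 and 121 CPM. Xirp2, an actin-binding Xin repeat gene, was at 74.5, 67.2 and 77.7 CPM and at 64.7, 56.6 and 59.7 CPM. None of these 3 genes overlapped between the groups, and their log2 fold changes were -0.23, -0.33 and -0.28, with adjusted p of 0.504, 0.439 and 0.467 by edgeR's quasi-likelihood test. The alpha-actinins, which crosslink actin at the Z disc, were at -0.31 for Actn2, made in all fibres, and -0.34 for Actn3, made in fast fibres, again without overlap.

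The calsarcins bind calcineurin at the Z disc, and neither of their genes separated the groups. Myoz1, of fast fibres, was at 58.1, 51.1 and 71.2 CPM in the controls and 55.5, 48.8 and 40.3 CPM in the lecko libraries. Myoz2, of slow fibres and heart, was at 41.2, 37.1 and 49.8 CPM and at 39.3, 31.0 and 31.9 CPM. Both were highest in control 3, with log2 fold changes of -0.32 and -0.33. Myot, which encodes the actin crosslinker myotilin, was at -0.30, and Smpx, a small protein of striated muscle, at -0.28. Tcap, the titin cap, was at 112 ± 10.6 and 108 ± 16.7 CPM (SD, n = 3 each). Its log2 fold change of -0.05 had a 95% interval of -0.32 to 0.22, and lecko 1 held its highest value, 127 CPM. Of the 10 genes of this role, 10 were below 0, where 48.1% of all genes were. Of these 10, 5 were lower without overlap, where 7.23% of all genes were.

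Calcium handling genes held the smallest p-values of the 39. Cacna1s, the voltage sensor of the transverse tubule, was at 50.4, 49.0 and 54.1 CPM in the controls and 43.3, 42.7 and 38.4 CPM in the lecko libraries. Ryr1, the release channel that this sensor opens, was at 118, 115 and 120 CPM and at 97.8, 101 and 80.8 CPM. The spread within the controls was narrow for both, 2.63 and 2.78 CPM (SD, n = 3), and every lecko value lay below it. Log2 fold changes were -0.30 (SE 0.07) for Cacna1s and -0.34 (SE 0.08) for Ryr1, both with an adjusted p of 0.385 by edgeR's quasi-likelihood test. DESeq2 gave Ryr1 an adjusted p of 0.127. Jph1, junctophilin, which holds the tubule and the reticulum together, was at -0.33 without overlap.

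Calcium storage and removal followed a like order for the fast genes. Atp2a1, the fast calcium pump SERCA, was at 1337, 1294 and 1441 CPM in the controls and 1169, 1173 and 894 CPM in the lecko libraries. Casq1, the calcium store protein calsequestrin of fast fibres, was at 222, 206 and 228 CPM and at 181, 188 and 152 CPM. Pvalb, parvalbumin, a soluble calcium buffer of the fastest fibres, was at 199, 171 and 198 CPM and at 163, 164 and 110 CPM. In these 3 genes lecko 1 and lecko 2 were close to each other, lecko 3 was lowest, and the groups did not overlap. Log2 fold changes were -0.33 for Atp2a1 and Casq1 and -0.38 for Pvalb. Casq2, the calsequestrin of slow fibres and heart, was at 49.7, 45.5 and 44.8 CPM and at 50.4, 36.1 and 35.4 CPM. Its highest value was in lecko 1, and its log2 fold change was -0.20 (95% interval -0.52 to 0.12).

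Trdn, which encodes triadin, the membrane protein that links calsequestrin to the release channel, stood apart from its partners. It was at 32.3, 33.8 and 31.6 CPM in the controls and 33.2, 33.8 and 35.5 CPM in the lecko libraries. Trdn was highest in lecko 3, the library in which most of the other genes were lowest, and its log2 fold change was 0.07 (95% interval -0.08 to 0.22). Over the 6 libraries its log2 CPM had a Pearson r of -0.94 with the mean of the other 38 genes, a value that rests on 6 points from the same libraries. Leaving out any 1 library gave values of 0.04 to 0.09 for Trdn.

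Genes of muscle energy supply were lower by a similar amount, apart from myoglobin. Ckm, the muscle creatine kinase that regenerates ATP, was at 552, 502 and 556 CPM in the controls and 460, 461 and 344 CPM in the lecko libraries. The groups did not overlap for Ckm, and its log2 fold change was -0.35 (SE 0.11, adjusted p = 0.511 by edgeR). Pygm, the phosphorylase that breaks down muscle glycogen, was at -0.34 and Eno3, the muscle enolase of glycolysis, at -0.30, both without overlap. Ckmt2, the mitochondrial creatine kinase, was at -0.31 with overlap. Mb, the oxygen-binding myoglobin, was at 128, 105 and 124 CPM in the controls and 122, 120 and 79.9 CPM in the lecko libraries. Only lecko 3 was low for Mb: the log2 fold change of -0.15 became 0.02 without that library.

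**Figure D3:**
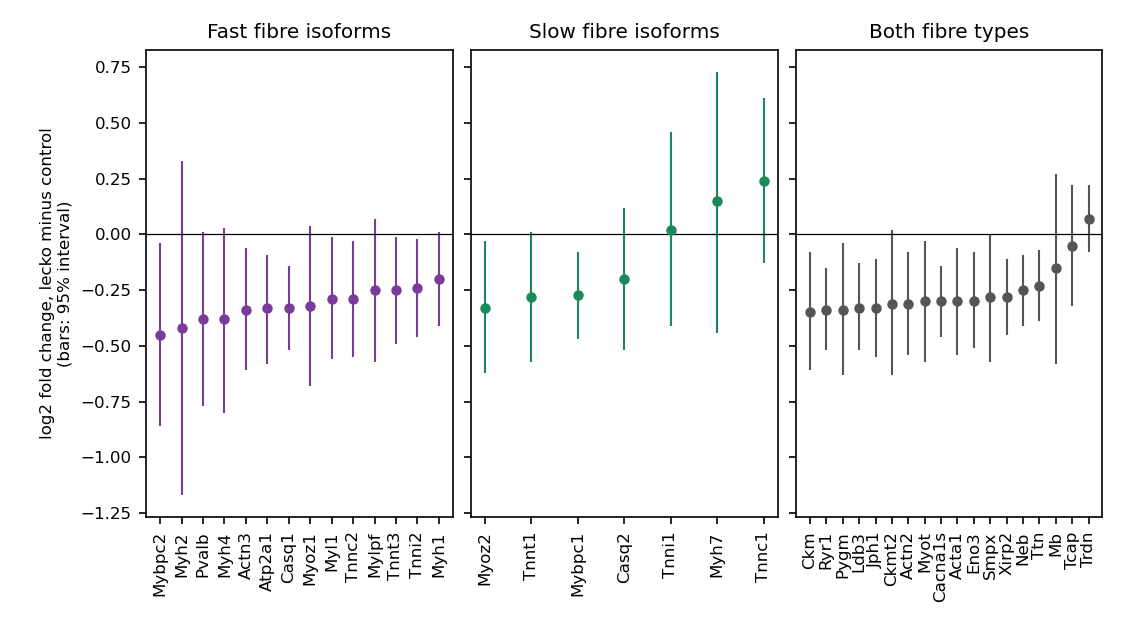
Log2 fold change of each gene, lecko minus control, from edgeR's fit to all 6 libraries, with 95% intervals as bars, in panels for fast isoforms, slow isoforms and genes of both fibre types. All 14 fast isoforms lie below 0, while Tnni1, Myh7 and Tnnc1 among the 7 slow isoforms and Trdn among the others lie above it with intervals that include 0.

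Fast isoforms were by far the more abundant in this tissue. Per length, Myh4 was at 96.3 and Myh1 at 208 RPKM in the controls against 2.72 RPKM for Myh7. Tnnc2 was at 444 RPKM against 8.92 RPKM for Tnnc1, and Tnni2 at 240 against 12.2 RPKM for Tnni1. Taking each pair by length, the slow member made up 1.97 ± 0.0892% of troponin C, 4.85 ± 0.563% of troponin I and 9.15 ± 0.452% of troponin T in the controls (SD, n = 3). The share of the slow member was larger in the other pairs: Casq2 made up 13.4 ± 0.807% of calsequestrin, Myoz2 43.7 ± 0.478% of the calsarcin pair and Mybpc1 87.7 ± 0.959% of myosin binding protein C. Acta1 was the most abundant of the 39 genes per length in the controls, at 1390 RPKM, followed by Mylpf at 872, Myl1 at 592 and Tnnt3 at 540 RPKM.

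Between genotypes, the fast isoforms were lower with fewer exceptions than the slow. All 14 fast isoforms had a log2 fold change below 0, with a median of -0.32, against 4 of the 7 slow isoforms with a median of -0.20. The groups did not overlap, with lecko lower, for 8 of the 14 fast isoforms and for 0 of the 7 slow, against 7.23% of all genes. The 18 genes of both fibre types were close to the fast isoforms: 17 were below 0, with a median of -0.30, and 11 were lower without overlap. Being lower was thus not particular to the fast isoforms. Over all genes tested, 48.1% were below 0. The mean log2 CPM of the fast isoforms was 8.16, 8.04 and 8.25 in controls 1 to 3 and 7.99, 7.88 and 7.57 in lecko 1 to 3, without overlap. For the slow isoforms it was 5.21, 5.06 and 5.12 and then 5.34, 4.84 and 4.87, so that lecko 1 was the highest and lecko 2 the lowest library.

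The fast level minus the slow level, on the log2 scale, was 2.95, 2.98 and 3.13 in the controls and 2.65, 3.04 and 2.70 in the lecko libraries. Lecko 1 and lecko 3 lay below all controls, and lecko 2 lay among them. The means were 3.02 ± 0.10 and 2.80 ± 0.21 (SD, n = 3 each), a difference of -0.22, about the size of the spread among the lecko libraries. It was -0.15 without lecko 1, -0.34 without lecko 2 and -0.05 when CPM were summed before taking logs, where the most abundant genes weigh most. In the slow sum that gene is Mybpc1, which fast fibres make too. It held 370 of 562.6 CPM in control 1 and 272 of 419.0 CPM in lecko 3. The difference between isoform classes was not tested. Without lecko 1 the medians were -0.40 for the fast and -0.37 for the slow isoforms, and without lecko 3 they were -0.20 and -0.11.

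Pair by pair, troponin C was the sole pair of 7 whose log2 fast to slow ratio did not overlap between the groups. For comparison, the CPM of single genes did not overlap for 7.23% of all genes with lecko lower and for 7.37% with lecko higher. No such share was computed for ratios, and with 7 pairs nothing is read from a single one. The ratio of Tnnc2 to Tnnc1 was 5.51, 5.55 and 5.64 in the controls and 4.89, 5.28 and 4.96 in the lecko libraries. By length, the share of Tnnc1 was 1.97 ± 0.0892% in controls and 2.83 ± 0.385% in lecko skin (SD, n = 3 each). This share rests on 107 to 168 reads of Tnnc1 per library. For Myh4 and Myh7 the ratio was 5.10 ± 0.17 and 4.58 ± 0.45, and for Tnni2 and Tnni1 3.71 ± 0.18 and 3.47 ± 0.42, with lecko 1 and lecko 3 below all controls and lecko 2 not below them in both. The troponin T ratio was 3.34 ± 0.08 and 3.38 ± 0.27, and the calsarcin ratio 0.49 ± 0.03 and 0.50 ± 0.16. The calsequestrin ratio differed by -0.12 and that of myosin binding protein C by -0.20, each with overlap.

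**Figure D4:**
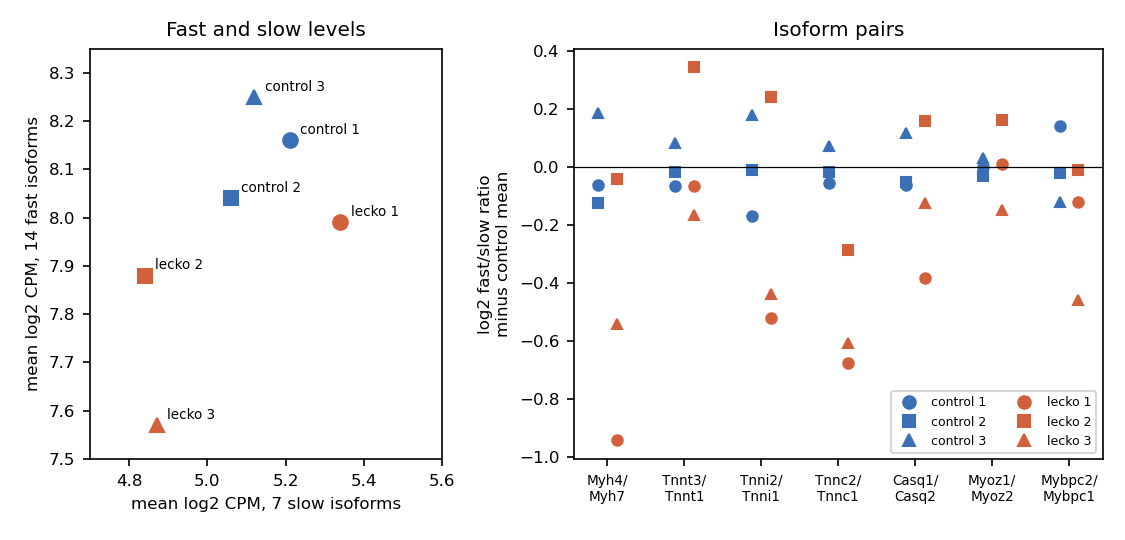
Left, mean log2 CPM of the 14 fast isoforms (vertical) against that of the 7 slow isoforms (horizontal) in each library. Right, log2 fast to slow ratio of each isoform pair in each library, minus the mean of the controls. Lecko 1 has the highest slow level, and Tnnc2/Tnnc1 is the pair in which all 3 lecko libraries lie below all controls.

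Most of the 39 genes varied together from library to library. The Pearson r of a gene's log2 CPM with the mean of the other 38 over the 6 libraries had a median of 0.92, and 32 genes reached 0.8. The points share their libraries and their scaling, so this is a description. The 7 genes under 0.8 included Trdn at -0.94, Tnnc1 at 0.06, Myh7 at 0.31 and Tnni1 at 0.33, and also Tcap at 0.59, Myh2 at 0.60 and Myh1 at 0.68. After the common level of each library was subtracted, Myh7 ranged over 1.00 on the log2 scale across libraries, Myh2 over 0.97 and Tnnc1 over 0.72, whereas Mybpc1 ranged over 0.08 and Acta1 over 0.09.

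Of 13543 other genes whose mean log2 CPM reached 1, the 10 whose log2 CPM was most like the mean of the 39 over the 6 libraries had an r of 0.986 to 0.992. Muscle genes among them were Nrap, of the muscle and tendon junction, Myom3, of the M band, Smyd1, a muscle methyltransferase, Synpo2l and Smtnl1. The others were Snx17, a sorting nexin, Gapdh, an enzyme of glycolysis, Cox17, a copper carrier of mitochondria, Smagp and 1190007I07Rik. With 6 libraries a value near 1 can arise for unrelated genes, and no function is read from it.

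Other muscle genes, from 7 lists of 92 genes that share no gene with the 39, had values on the same side. Of the 88 with enough reads, 76 were below 0, against 48.1% of all genes, with a median of -0.23. At an unadjusted p under 0.05, 29 were lower and 0 higher, against 3.68% and 4.89% of all genes. By edgeR's adjusted p, 0 of the 88 passed, and DESeq2 also called 0 of them lower. Thin filament and Z disc genes had a median of -0.28, with 14 of 14 below 0, among them Klhl40, a stabiliser of thin filaments (-0.55), Tpm2, a tropomyosin (-0.28) and Tmod4, which caps filament ends (-0.32). Genes of excitation and contraction coupling had a median of -0.30, with 15 of 15 below 0, among them Jph2 (-0.33), Jsrp1 (-0.35) and Stac3, which couples the sensor to the release channel (-0.38). Atp2a2, the calcium pump of slow fibres that most other cells use too, averaged 388 CPM in the controls and 384 CPM in the lecko libraries.

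Thick filament and M band genes had a median of -0.23, among them Myom2 (-0.44) and Myom1 (-0.29), which crosslink myosin at the M band. Slow and developmental myosin genes in that list did not share the sign: Myl2, the slow and ventricular light chain, was at 0.26, Myl3 at 0.08 and Myh8, the perinatal heavy chain, at 0.17, while Myh3, the embryonic heavy chain, was at -0.23. Myl2 was at 11.7 CPM in lecko 1 and at 5.77 to 7.67 CPM in the other 5 libraries, which is the pattern of Myh7, Tnnc1 and Tnni1. Energy genes had a median of -0.23, with 14 of 14 below 0, among them Ak1 (-0.31), Ampd1 (-0.35) and Cox8b (-0.36). Membrane and neuromuscular junction genes had a median of -0.24, with 12 of 12 below 0, among them Sgca (-0.36) and Cav3 (-0.39), both parts of the muscle membrane.

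The medians of the regulatory lists were closer to 0 than those of the structural lists. The list of myogenic regulators and satellite cell genes had a median of -0.09 over 13 genes, with 9 below 0 and 0 at an unadjusted p under 0.05. Myod1, a master regulator of muscle fate, was at -0.18, Myog, which drives fibre formation, at -0.17, and Pax7, the mark of satellite cells, at -0.13. All 3 were under 6 CPM in every library, which limits their precision. The atrophy and denervation list had a median of 0.00 over 7 genes. In it, the ubiquitin ligase genes Trim63 and Fbxo32, which promote the breakdown of muscle protein, were at -0.70 and -0.30 without overlap. Trim63 was at 24.2, 22.0 and 17.9 CPM in the controls and 17.0, 11.3 and 11.2 CPM in the lecko libraries, with an adjusted p of 0.468 by edgeR. Ncam1, which rises in denervated fibres and is also made by nerve, was at -0.12. Among the genes of this list above 0 were Runx1, a transcription factor that rises on denervation, at 0.21, Myl4 at 0.14 and Gadd45a at 0.05, each with overlap.

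**Figure D5:**
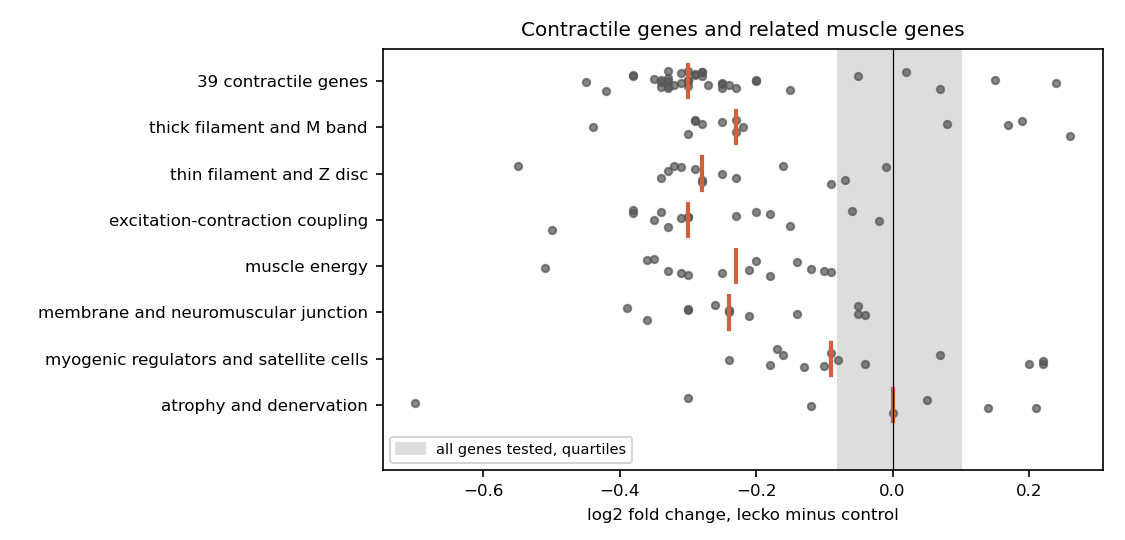
Log2 fold change, lecko minus control, of the 39 genes and of each list of related muscle genes, with the list median as an orange bar and the quartiles of all genes tested (-0.08 to 0.10) as a grey band. Structural, calcium and energy lists have medians of -0.30 to -0.23, while regulators (-0.09) and atrophy genes (0.00) lie within 0.1 of 0.

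Markers of other tissues of the ear were measured in the same libraries. The 8 smooth muscle and pericyte markers summed to 768.2 to 848.2 CPM in controls and 696.7 to 740.1 CPM in lecko skin, without overlap. Of these, 6 had a log2 fold change below 0, among them Acta2, smooth muscle actin (-0.24), and Des, desmin, which skeletal fibres make as well (-0.34), while the pericyte genes Cspg4 (0.08) and Pdgfrb (0.16) were above 0. The 4 blood endothelial markers, Kdr included, summed to 253.6 to 282.8 and 194.8 to 215.3 CPM. Leukocyte markers went the other way, at 66.51 to 95.62 CPM and 96.79 to 126.5 CPM over 4 genes. Cartilage markers, at 510.4 to 719.2 and 546.8 to 858.0 CPM over 5 genes, overlapped, and so did fibroblast markers at 6879 to 10828 and 7907 to 8671 CPM over 4. Gene by gene, all 5 cartilage markers were above 0, with a median log2 fold change of 0.28. The fibroblast sum is carried by Col1a1 (-0.20), while the other 3 markers, Pdgfra (0.23), Dcn (0.24) and Lum (0.26), were above 0. Over all genes tested, 48.1% were below 0. Keratinocyte markers, at 21451 to 24834 and 21909 to 23064 CPM, and tendon markers, at 333.5 to 440.1 and 345.7 to 372.5 CPM, also overlapped. The 4 Schwann cell and nerve markers summed to 536.2 to 557.3 and 469.4 to 520.1 CPM without overlap. The 4 lymphatic endothelial markers, of the cells in which Kdr was deleted, summed to 132.3 to 155.5 and 130.9 to 157.8 CPM, and the 5 adipocyte markers to 250.4 to 270.0 and 189.8 to 278.2 CPM, both with overlap. The part of these other cell types in the muscle values was not tested. Removing the muscle genes from the library size left the median of the 39 genes at -0.30. The 39 genes held at most 1.286% of the counts of a library, and the related muscle genes summed to at most 6084 CPM. Their removal could therefore change the scaling only slightly, and it does not bear on other cell types.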

How the data were processed

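RNA of ear skin was measured in 3 control and 3 lecko libraries of polyadenylated RNA, grouped by sample title. The authors deposited a table of estimated counts per gene, a unit named here from the values (9.6 to 10.52% of them in a library are not whole). Per the submitters' processing notes, RSEM 1.3.1, HISAT2 2.2.1, Bowtie2 2.4.5 and the build GRCm38.p6 were used, with no role or order stated. Annotation and strand setting: not given in the sources used here. Counts were rounded and filtered with filterByExpr (minimum count 10, minimum total 15). They were scaled by TMM and tested with edgeR 4.0.16 in R 4.3.3 (robust quasi-likelihood fit, group as sole term, Benjamini-Hochberg adjustment over 14856 genes, threshold 0.05). Log2 CPM used a prior count of 2. RPKM used the longest protein-coding transcript of GENCODE M21. Coordinates come from RefSeq.

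Alternatives were DESeq2 1.42.0, limma-voom (limma 3.58.1), other scalings and filters, a fit without robust estimation, a replicate block, sex as a covariate and leaving out each library. Within a group, chi-square per degree of freedom between libraries was 8.14 to 16.82, above sampling noise. Each library was counted as a replicate by its title, and spread of this kind does not show that libraries came from separate animals. The labels name no animal or litter, and p-values thus cover only the spread among these 6 samples. Y-linked counts differ among the controls, which are therefore not all from 1 animal. The lecko libraries were all below the Y-linked threshold, so these counts do not show whether they came from separate animals. The fitting script was tested on simulated data. The 39 genes and the lists were chosen with earlier results of these data known. Values in every library are printed for isoform pairs, for 9 fixed genes and for the 5 genes with the smallest p, and related lists show up to 3 genes with the smallest p, of which some are not reported here. Genes named beyond that, such as Trdn, Tcap, Myh1, Myh2, Myl2 and the myogenic regulators, were chosen after their values were seen.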

Additional observations from a re-analysis of the deposited data

How the results depend on the processing

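Over 18 alternatives, 35 of the 39 genes kept the sign of their log2 fold change, and 0 were called by any of them (smallest adjusted p 0.122, for Ldb3 by edgeR without control 2). The exceptions were Tnni1, at -0.01 with limma-voom, -0.002 with the replicate block, -0.12 with sex as a covariate and -0.13 among the libraries below the Y-linked threshold, and at -0.21 to 0.19 with single libraries left out. With single libraries left out Tcap ranged from -0.19 to 0.02, Myh7 from -0.18 to 0.32 and Mb from -0.27 to 0.02. The cause was not tested.

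The median of the 39 genes was -0.32 to -0.30 under every alternative that did not leave out a single library in turn, and -0.39 to -0.20 with single libraries left out. Genes lower at an unadjusted p under 0.05 numbered 8 with sex as a covariate, 10 among the libraries below the Y-linked threshold and 12 to 31 with single libraries left out. These fits have fewer residual degrees of freedom or libraries. The fast minus slow difference was -0.05 with summed CPM and -0.34 to -0.15 with single libraries left out. Over all genes edgeR called 2 higher and 1 lower, DESeq2 24 higher and 8 lower, and fits without single libraries 2 to 36 higher (36 without control 2, 4 without lecko 2) and 1 to 5 lower (5 without control 1, 2 without lecko 2).

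Deviations from the group means had an r of 0.337, -0.072 and 0.035 between same-numbered libraries, for numbers 1 to 3. Between libraries of unlike number r was -0.285 to 0.234, so the value for number 1 was the largest. Whether same-numbered libraries share more than a number was not tested. With the replicate block 24 of the 39 genes were lower at an unadjusted p under 0.05, against 23 without it, and the count of calls stayed at 2 higher and 1 lower. Depth limits Tnnc1 (107 to 168 reads per library) most. With 3 libraries a group, single outlying samples were not tested for.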

Other observations

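Fabp3, the fatty acid carrier of oxidative muscle and heart, varied widely within both groups. It was at 63.3, 42.7 and 31.3 CPM in the controls and 60.0, 19.5 and 16.7 CPM in the lecko libraries, so control 1 and lecko 1 were high and the groups overlapped. Ankrd2, a stretch-responsive gene of slow muscle, was at 17.4, 11.3 and 21.6 CPM and at 20.4, 8.14 and 12.3 CPM, lowest in lecko 2. Csrp3, which encodes the muscle LIM protein, was likewise lowest in lecko 2, at 40.8 CPM against 48.1 to 69.9 CPM in the other 5 libraries. Lecko 2 was also the library with the lowest Myh2 and Tnnt1. These genes were named after their values were seen.

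The receptor genes of the neuromuscular junction were measured at low levels. Chrna1, the receptor subunit of all muscle junctions, was at 20.5, 20.0 and 19.5 CPM in the controls and 17.4, 18.0 and 13.3 CPM in the lecko libraries, a log2 fold change of -0.30 without overlap. Chrnb1, another subunit of all muscle junctions, averaged 14.2 CPM in the controls and 13.7 CPM in the lecko libraries, a log2 fold change of -0.05. Chrnd was at -0.26 and Chrne, the adult subunit, at -0.30, both with overlap, and Chrng, the fetal subunit, had 0 to 9 counts per library. Musk, the kinase that assembles the junction, averaged 12.1 CPM in the controls and 11.7 CPM in the lecko libraries.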
